A study of Mus musculus with 6 samples.

Results

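The 10 genes described here encode brakes on mitogen-activated protein kinase (MAPK) signalling: the dual-specificity phosphatase genes Dusp1, Dusp2, Dusp4, Dusp5, Dusp6 and Dusp10, the Spred genes Spred1 and Spred2, and the Sprouty genes Spry1 and Spry2. They were chosen by symbol: a feature of the array table was taken when the platform annotation gave it exactly 1 of these symbols. All 10 genes were found, in 11 of 21542 features with a single gene symbol, and Spred2 was the gene with 2 features. No filter on low values was applied, so every member was tested.

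Growth factor, antigen and Toll-like receptors pass signals through RAS and RAF to the kinases MEK and ERK, and through related cascades to JNK and p38. Sprouty and Spred proteins act high in the ERK cascade, at RAS and RAF, and SPRED1 brings the RAS inhibitor neurofibromin to the membrane. DUSP proteins act at its end, by removing phosphate from ERK, JNK or p38 themselves, and several DUSP and Sprouty genes are induced by ERK activity, which makes them feedback inhibitors.

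The cells were mature B cells from mouse spleen, activated, infected with a retrovirus that carried a green fluorescent protein marker, and kept in mitogen for 36 hours after infection. They were then washed, held for 24 hours without mitogen (without anti-CD40), sorted for the marker and profiled on Affymetrix mouse ST 1.0 arrays. The 3 groups were cells with MYD88 carrying the L265P substitution (MYD88_L265P), cells with IKK carrying the K171E substitution (IKK_K171E), and cells with the empty vector (EV), with 2 arrays each, described as biological replicates. MYD88 is the adaptor of Toll-like and interleukin-1 receptors, and IKK kinases release NF-kB. All groups, EV included, were activated, infected, sorted and deprived of mitogen. The constructs were added with a retroviral vector whose promoter is not named, and the labels do not name the IKK subunit, the mouse strain or the age of the animals.

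The arrays were first checked against their labels. Myd88 read 12.25 and 12.31 on the MYD88_L265P arrays, 9.43 and 9.14 on the IKK_K171E arrays and 9.30 and 9.35 on the EV arrays (log2 signal). Ikbkb, the gene of IKK beta, read 11.35 and 10.68 in IKK_K171E, where both arrays lay above the EV values of 9.98 and 10.22. This difference of 0.91 did not pass (limma adjusted p = 0.0848). Mature B cell markers had a mean log2 signal of 10.90 to 10.95 in MYD88_L265P, 11.56 to 11.58 in IKK_K171E and 11.65 to 11.88 in EV over 9 genes. EV replicate 2 stood apart in genes of dividing cells, with a mean of 9.60 over 7 genes, where EV replicate 1 read 10.76 and the other 4 arrays 10.53 to 11.23. The table holds no detection values, so no feature could be called absent.

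The first question was which of these brakes differed between MYD88_L265P cells and empty vector cells. Both Spred genes and Dusp10 rose, and Dusp2 and Dusp6 fell. Of the 10 genes 3 were higher and 2 lower (limma, adjusted p below 0.05 with Benjamini-Hochberg over all 21542 features), and 5 did not pass. In this comparison 16.6% of all tested features were called, 9.32% as higher and 7.33% as lower. The median log2 fold change of the 10 genes was -0.21, beside -0.11 over all features. All arrays come from bulk RNA of sorted cells, in which fewer cells of a type and less RNA per cell cannot be told apart.

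**Figure D1:**
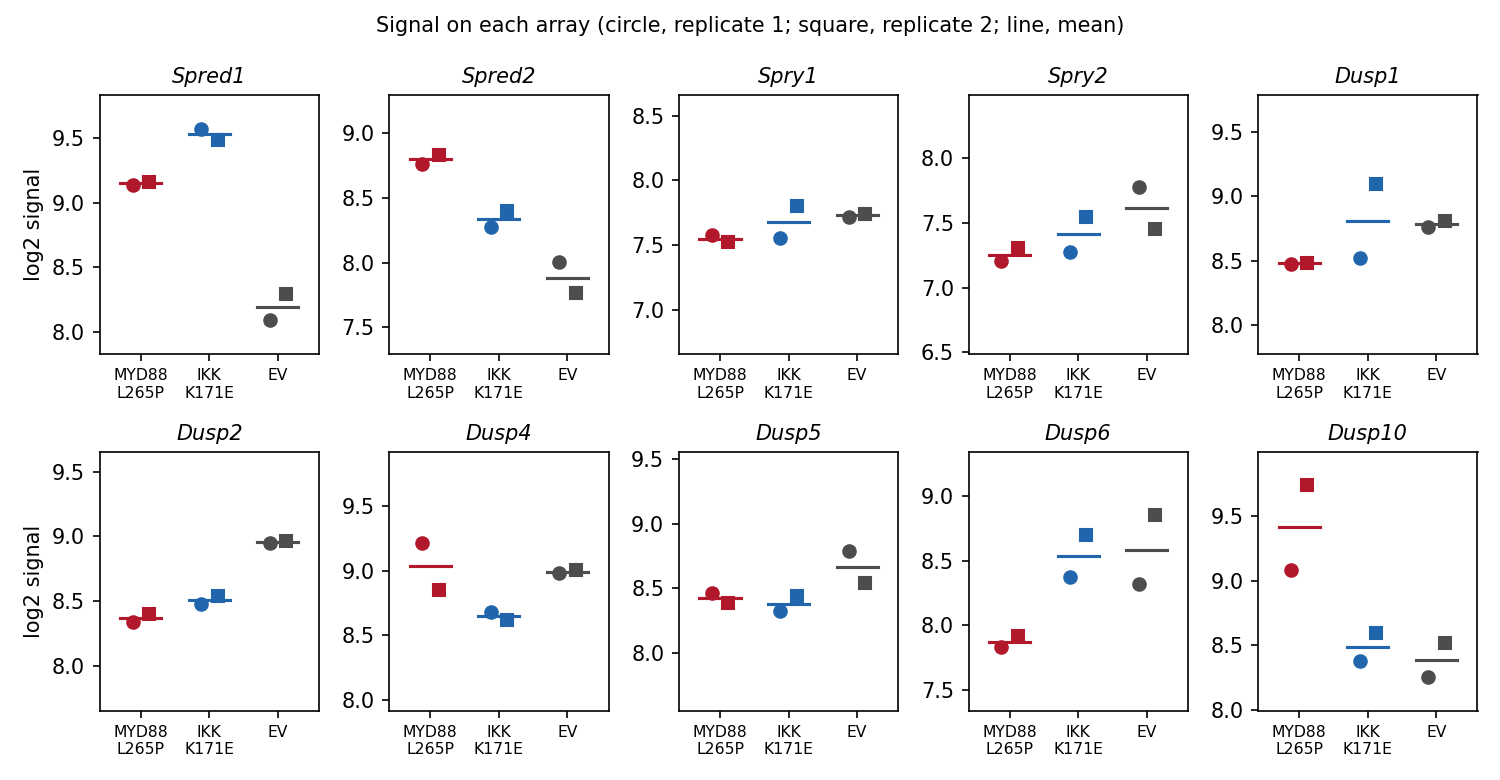
Log2 signal of each of the 10 genes on each array, with 1 panel per gene, every vertical axis spanning the same log2 range; circles are replicate 1, squares replicate 2 and lines group means (n = 2). Spred1 and Spred2 lay above EV on both MYD88_L265P arrays and on both IKK_K171E arrays, Dusp2 lay below EV on all 4, and Dusp10 was high on the MYD88_L265P arrays alone.

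The Spred genes act nearest to RAS. Spred1 read 9.14 and 9.16 in MYD88_L265P, against 8.09 and 8.29 in EV. The MYD88_L265P arrays were nearly equal and both lay above both EV arrays. The difference was 0.96 on the log2 scale (SE 0.10, limma adjusted p = 0.00440), or 1.94-fold. Spred2, a close relative that also binds RAS pathway proteins at the membrane, read 8.77 and 8.83 in MYD88_L265P, against 8.005 and 7.761 in EV. It rose by 0.92 (SE 0.11, adjusted p = 0.00579), and its dimmer second feature rose by 1.06 (SE 0.14, adjusted p = 0.00761), so both features of the gene moved the same way. Without MYD88_L265P replicate 2 the Spred2 difference was 0.88 with adjusted p = 0.0588, which no longer passed. Of 6 plasma cell markers 3 were higher in MYD88_L265P than in EV: Prdm1 (2.47), Xbp1 (1.26) and Jchain (2.22). Irf4 (0.83), Sdc1 (-0.12) and Tnfrsf17 (-0.12) did not pass. The list averaged 9.51 to 9.77 in MYD88_L265P and 8.45 to 8.64 in EV. Genes of dividing cells were positive in 7 of 7 cases, with a median of 0.99 and 2 called, and averaged 11.16 to 11.23 in MYD88_L265P and 9.60 to 10.76 in EV. Over all features 9.32% were called higher and 7.33% lower in this comparison. Lower among the markers were 6 of 9 mature B cell, 4 of 9 T cell and 2 of 8 dendritic cell genes. So were 2 of 6 NK cell, 1 of 7 neutrophil and 1 of 9 monocyte and macrophage genes. The part of these shifts in the results for the 10 genes was not tested.

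The sequences before the starts of the Spred genes are given because these genes rose together. Each window runs from 250 bases before to 50 bases after the annotated start (RefSeq, build GRCm38.p6), both on the plus strand, at chr2:117120821-117121120 for Spred1 and chr11:19924192-19924491 for Spred2. Neither holds a match to any of 7 motifs searched on both strands, so all letters are in lower case.
Spred1: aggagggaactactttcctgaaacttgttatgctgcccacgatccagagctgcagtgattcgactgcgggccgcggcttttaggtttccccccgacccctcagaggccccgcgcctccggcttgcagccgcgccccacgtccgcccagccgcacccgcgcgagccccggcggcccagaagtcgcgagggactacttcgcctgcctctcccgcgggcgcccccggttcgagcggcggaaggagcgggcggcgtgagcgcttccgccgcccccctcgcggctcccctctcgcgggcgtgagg
Spred2: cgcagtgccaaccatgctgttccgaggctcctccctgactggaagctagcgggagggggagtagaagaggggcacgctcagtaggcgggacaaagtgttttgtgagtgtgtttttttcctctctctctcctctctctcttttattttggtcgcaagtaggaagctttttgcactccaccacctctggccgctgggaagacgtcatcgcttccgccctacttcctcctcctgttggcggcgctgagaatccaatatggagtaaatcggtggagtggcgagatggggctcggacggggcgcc
Guanine and cytosine made up 72.3% of the Spred1 window and 57.0% of the Spred2 window, against a median of 52.7% over 32851 windows of the same length.

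The motifs were the AP-1 site TGANTCA, the cAMP response element TGACGTCA, the EGR site GCGNGGGCG, the ETS site CCGGAAG, the STAT site TTCNNNGAA, the SRF CArG box and the kappaB site. They were chosen after the expression values were seen. Windows were found for 9 of the 10 genes, all but Dusp4. Matches lay in the windows of Dusp1, Dusp2 and Dusp5 alone among the 9, and these stretches are shown with the match in capitals and 25 bases on either side, in the direction of the gene.
Dusp1: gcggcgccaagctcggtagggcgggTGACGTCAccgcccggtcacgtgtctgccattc
Dusp2: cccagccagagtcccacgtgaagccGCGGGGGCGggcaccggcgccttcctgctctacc
Dusp5: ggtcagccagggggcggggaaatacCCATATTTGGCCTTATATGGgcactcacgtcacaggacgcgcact
The Dusp1 stretch (chr17:26508583-26508640, minus strand) holds a cAMP response element that begins 143 bases before the start, a motif found in 1.79% of all windows. The Dusp2 stretch (chr2:127336036-127336094, plus strand) holds an EGR site 98 bases before the start, found in 5.55% of windows. The Dusp5 stretch (chr19:53529038-53529107, plus strand) holds 2 adjoining CArG boxes that begin 82 and 72 bases before the start, and 1.63% of windows hold at least 1. AP-1, ETS, STAT and kappaB letters occurred in none of the 9 windows and in 7.81%, 8.86%, 8.30% and 4.51% of all windows. A match is a run of letters and not a shown binding site, and its absence applies to this window only.

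The signal of the Sprouty genes, which act on the same part of the pathway as the Spreds, did not rise. Spry1 read 7.58 and 7.52 in MYD88_L265P, against 7.72 and 7.74 in EV. Its difference of -0.18 (95% interval -0.42 to 0.07) did not pass. Spry2 read 7.21 and 7.31 in MYD88_L265P, against 7.78 and 7.46 in EV. Both MYD88_L265P arrays were below both EV arrays, but the difference of -0.36 (SE 0.14, limma adjusted p = 0.107) did not pass. The Sprouty intervals end below the lower bounds of the Spred intervals, 0.72 for Spred1 and 0.66 for Spred2. On every array both Sprouty genes read below the array median, and these medians ran from 8.03 to 8.13. With no detection values, such signal could not be told from background. Whether Sprouty expression itself stayed level was therefore not tested.

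Among the nuclear phosphatases, which act on MAPKs that have entered the nucleus, Dusp2 fell. Dusp2, an inducible phosphatase of activated lymphocytes, read 8.34 and 8.40 in MYD88_L265P, against 8.95 and 8.96 in EV. The replicates differed by far less than the groups, and the fall was by 0.59 on the log2 scale (SE 0.08, limma adjusted p = 0.00873), or 0.666-fold of EV. Without MYD88_L265P replicate 1 the difference was -0.56 and without replicate 2 it was -0.61, so the size changed little. Dusp2 passed in neither of these fits, which hold a lone MYD88_L265P array and call fewer features over the whole series as well.

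The other nuclear members did not pass. Dusp1, which prefers p38 and JNK, read 8.47 and 8.48 in MYD88_L265P, against 8.76 and 8.81 in EV. The difference was -0.30 (SE 0.17, limma adjusted p = 0.222). The SE also draws on the IKK_K171E arrays, whose SD was 0.40, against 0.007 in MYD88_L265P and 0.03 in EV. With the 2 compared groups alone the SE was 0.08 and the limma adjusted p = 0.0555, which did not pass either. Dusp5, which acts on nuclear ERK, read 8.47 and 8.39 in MYD88_L265P, against 8.79 and 8.54 in EV, a difference of -0.24 (SE 0.11, adjusted p = 0.161). For both genes the MYD88_L265P arrays lay below the EV arrays. Dusp4, a phosphatase of ERK and JNK, read 9.22 and 8.85 in MYD88_L265P, against 8.983 and 9.003 in EV, where the groups overlapped (difference 0.04, 95% interval -0.26 to 0.34).

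Dusp6, the cytoplasmic phosphatase specific for ERK, fell. It read 7.83 and 7.92 in MYD88_L265P, against 8.32 and 8.85 in EV. The EV arrays lay far apart, with an SD of 0.38 where that of MYD88_L265P was 0.06. The fall was by 0.71 (SE 0.19, limma adjusted p = 0.0428), or 0.611-fold of EV. This call was lost in 9 of 15 alternatives. Shifting all arrays to a common median made the difference -0.62 (adjusted p = 0.0668) and quantile normalization -0.65 (adjusted p = 0.0749), neither of which passed. Without EV replicate 2, the array with low signal of dividing cell genes, it was -0.45 (adjusted p = 0.132), and without EV replicate 1 it was -0.98 and passed.

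Dusp10, which removes phosphate from JNK and p38 in preference to ERK, rose. It read 9.09 and 9.74 in MYD88_L265P, against 8.25 and 8.52 in EV. Both MYD88_L265P arrays were above both EV arrays, although they differed from each other by more than any other replicate pair of the 10 genes. The rise was by 1.02 (SE 0.21, limma adjusted p = 0.0222), or 2.03-fold, and 2.24% of tested features changed by more in either direction. Without MYD88_L265P replicate 2 it was 0.70 (adjusted p = 0.0968), and without EV replicate 1 it was 0.89 (adjusted p = 0.0603).

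**Figure D2:**
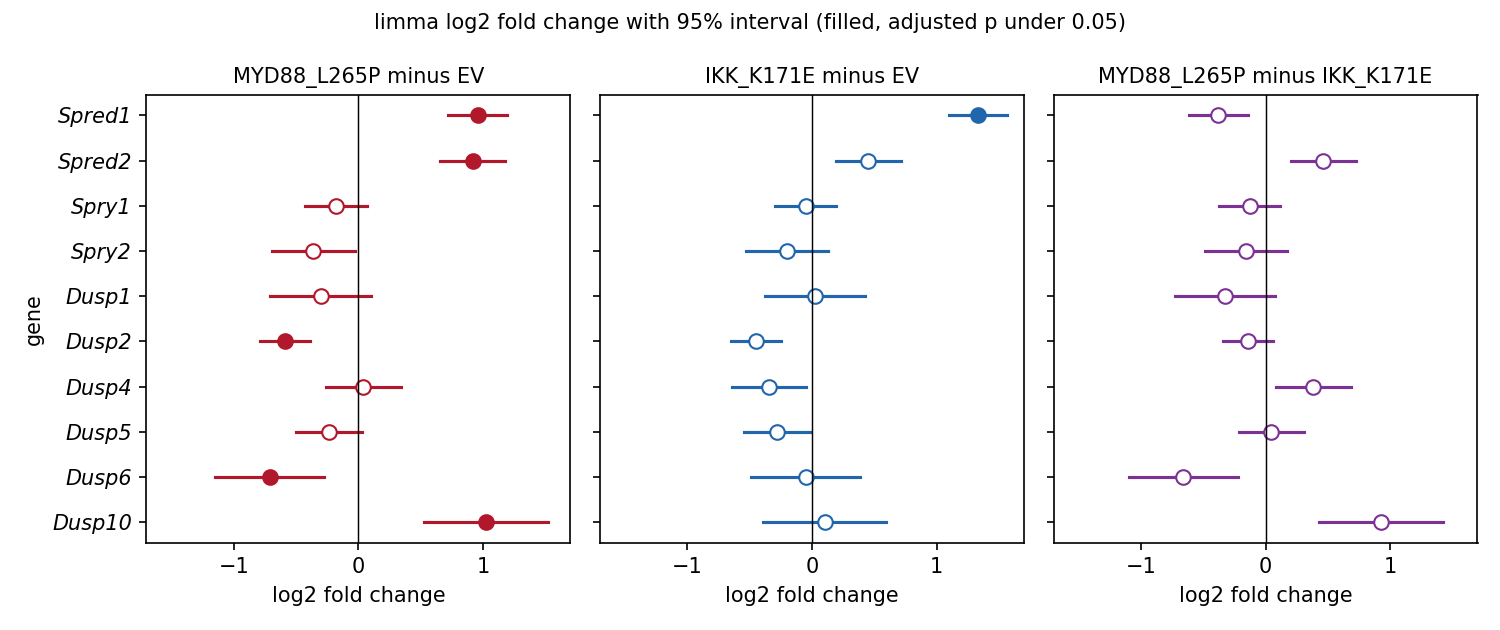
Limma log2 fold change of each gene (points) with its 95% interval (bars) in the 3 comparisons, with filled points for adjusted p below 0.05. In MYD88_L265P minus EV, Spred1, Spred2 and Dusp10 are filled on the right and Dusp2 and Dusp6 on the left, while in IKK_K171E minus EV Spred1 at 1.33 is the filled point and MYD88_L265P minus IKK_K171E has none.

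The next question was what IKK_K171E changed relative to the same 2 EV arrays. Spred1 rose, and the other 9 genes did not pass. In this comparison 1.37% of all features were called, 0.956% as higher and 0.413% as lower. At an unadjusted p below 0.05 there were 5 of the 10 genes, 2 higher and 3 lower, against 17.1% of all features. The comparisons with EV share its arrays, so their values are given side by side and not as separate evidence.

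Spred1 read 9.57 and 9.48 in IKK_K171E, against 8.09 and 8.29 in EV. Both IKK_K171E arrays stood more than 1 log2 unit above both EV arrays, and also above both MYD88_L265P arrays. The rise was by 1.33 (SE 0.10, limma adjusted p = 0.00624), or 2.52-fold, and 0.172% of tested features changed by more. Without IKK_K171E replicate 1 it was 1.29 with adjusted p = 0.0930, in a fit in which no feature at all was called. Some markers of monocytes, macrophages and dendritic cells also differed from EV, as did other marker lists. Of 9 monocyte and macrophage genes Csf1r was higher (1.22) and Adgre1 lower (-1.17), Lyz2 stood at 1.41 (limma adjusted p = 0.0501), and 5 were higher and 1 lower at an unadjusted p below 0.05. This list averaged 10.06 to 10.29 in IKK_K171E and 9.77 to 9.85 in EV. Of 8 dendritic cell genes Flt3 (0.75) and Itgax (0.68) were higher, and the list averaged 8.15 to 8.19 in IKK_K171E and 7.971 to 7.998 in EV. The markers Cd14 (0.07), Xcr1 (-0.02) and Siglech (0.06) had differences near 0 that did not pass. In MYD88_L265P, where Spred1 also rose, the median of the monocyte list was -0.03 over EV (log2 fold change). Adgre1 was lower (-1.78), and Csf1r (0.30) and Lyz2 (0.30) were positive without passing. The dendritic cell list had a median of -0.22 there. In IKK_K171E over EV the list medians were 0.47 for monocytes and macrophages, 0.06 for dendritic cells, 0.24 for NK cells and 0.14 for T cells. They were 0.02 for neutrophils, 0.50 for dividing cells, -0.38 for mature B cells and -0.01 for plasma cells. Of these other lists 1 gene was called there, the mature B cell gene Cd22 (-0.64). Over all features 1.37% were called and 17.1% had an unadjusted p below 0.05. The part of these marker shifts in the Spred1 result was not tested.

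Spred2 read 8.28 and 8.40 in IKK_K171E, against 8.005 and 7.761 in EV. All 4 values kept the groups apart, and the difference of 0.45 (SE 0.11, limma adjusted p = 0.0987) did not pass, nor did that of the second feature (0.54, SE 0.14, adjusted p = 0.117). Dusp2 read 8.47 and 8.54 in IKK_K171E, against 8.95 and 8.96 in EV. Its difference of -0.45 (SE 0.08, limma adjusted p = 0.0575) just missed the threshold. It passed in 2 of 15 alternatives. These were quantile normalization (-0.48, adjusted p = 0.0470) and the dimmest 25% of features left out (adjusted p = 0.0463). It did not pass in the other 13, among them array weights (adjusted p = 0.0870) and the 2 compared groups alone (adjusted p = 0.141).

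The remaining genes were closer to EV. Dusp4 read 8.68 and 8.62 in IKK_K171E, against 8.983 and 9.003 in EV, with a difference of -0.34 (SE 0.13, limma adjusted p = 0.230), and Dusp5 read 8.32 and 8.44 in IKK_K171E, against 8.79 and 8.54 in EV (-0.28, adjusted p = 0.260). Both genes were lower on each IKK_K171E array than on either EV array without passing. Dusp6 read 8.37 and 8.70 in IKK_K171E and Dusp10 read 8.38 and 8.60, which overlapped the EV values of each gene. Their differences were -0.05 (95% interval -0.49 to 0.39) for Dusp6 and 0.10 (95% interval -0.40 to 0.60) for Dusp10. Dusp1 (8.52 and 9.09) and Spry1 (7.56 and 7.80) had IKK_K171E replicates on either side of both EV arrays. Spry2, at 7.28 and 7.55 in IKK_K171E, also overlapped EV.

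The comparison of MYD88_L265P with IKK_K171E tests directly whether the constructs differed. None of the 10 genes passed (limma, 0 called), while 1.75% of all features did, 0.873% as higher and 0.877% as lower. At an unadjusted p below 0.05 there were 5 of the 10 genes, Dusp4, Dusp10 and Spred2 higher in MYD88_L265P and Dusp6 and Spred1 lower, against 19.6% of all features. Dusp10 stood at 9.09 and 9.74 in MYD88_L265P, against 8.38 and 8.60 in IKK_K171E. The difference came to 0.92 (SE 0.21, 95% interval 0.43 to 1.42, adjusted p = 0.0892). For Dusp6 the difference was -0.66 (SE 0.19, 95% interval -1.10 to -0.23, adjusted p = 0.137). The Spred genes went opposite ways: Spred1 was lower in MYD88_L265P than in IKK_K171E by -0.38 (SE 0.10, adjusted p = 0.123) and Spred2 differed by 0.46 (SE 0.11, adjusted p = 0.0972). So the rise of Dusp10 and the fall of Dusp6 passed against EV in MYD88_L265P and not in IKK_K171E, but a difference between the constructs passed for neither gene in the fit that leaves the replicate numbers aside. For Dusp2 the difference was -0.14 (95% interval -0.34 to 0.06).

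Placed in order of mean signal, Spred1 ran IKK_K171E, MYD88_L265P, EV, with both constructs passing against EV and not against each other. Spred2 and Dusp10 ran MYD88_L265P, IKK_K171E, EV, and Dusp2 and Dusp6 ran in the opposite order. In these 4 genes the IKK_K171E mean lay between the other groups and passed against neither. For Dusp6 and Dusp10 the IKK_K171E arrays overlapped the EV arrays. Their difference from EV changed sign in 2 of 15 alternatives for each gene, so its order is not settled there.

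**Figure D3:**
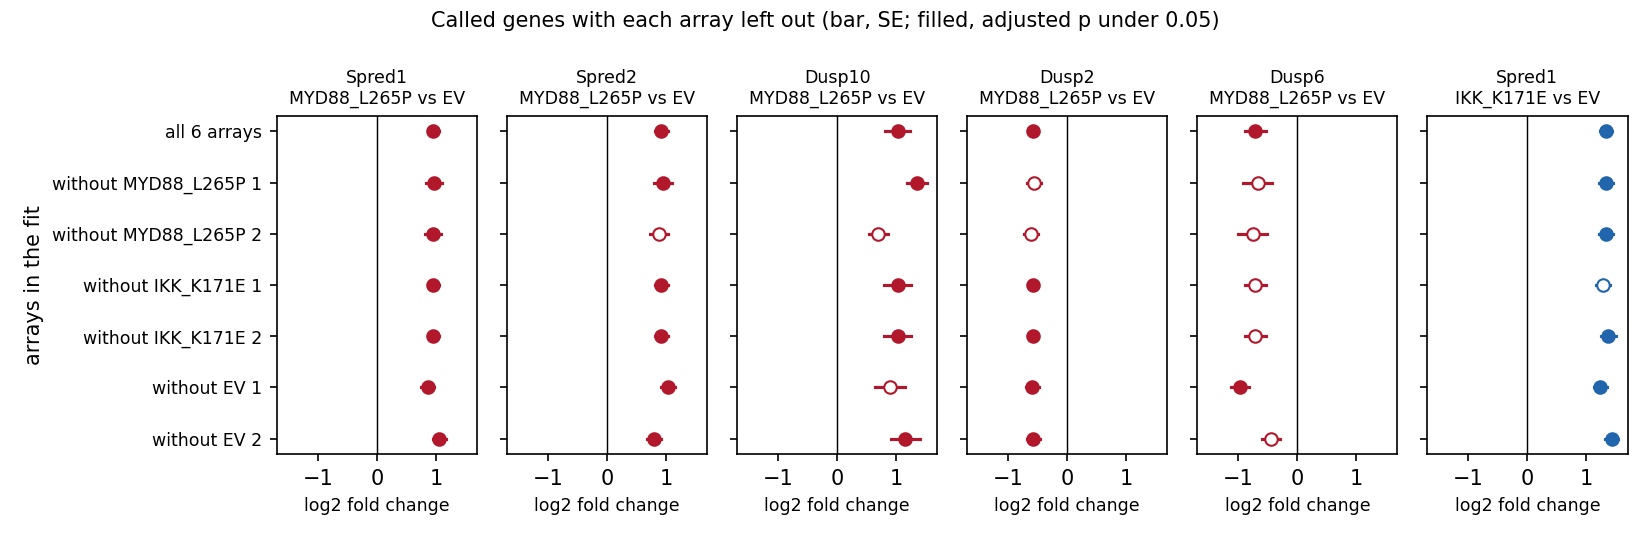
Log2 fold change (points) and SE (bars) of the 5 genes called in MYD88_L265P over EV and of Spred1 in IKK_K171E over EV, with all 6 arrays and with each array left out, filled where adjusted p was below 0.05. Every point keeps its side of 0, Spred1 in MYD88_L265P stays filled throughout, and Dusp6 moves between -0.98 and -0.45 with the EV array that is left out.

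For each called gene the 3 genes with the most similar profile were found, by the Euclidean distance between log2 values on the 6 arrays after each gene was centred on its own mean. Spred1 lay nearest to Map7d3 (distance 0.139), Fcer1g (0.197), the Fc receptor gamma chain gene, and Nostrin (0.236). Fcer1g read 10.07 and 10.02 in MYD88_L265P, 10.46 and 10.50 in IKK_K171E, and 8.87 and 9.09 in EV, the same order of groups as Spred1. Spred2 lay nearest to Ndufc1 (0.0490), Zfp472 (0.117) and Gsdme (0.134). Dusp10 lay nearest to Arhgap32 (0.159), Krt222 (0.293) and Sgk3 (0.322), and Arhgap32 had the same wide gap between MYD88_L265P replicates, at 7.51 and 8.08. Dusp2 had Inpp5k (0.0958), Ppp1r13b (0.0964) and Laptm5 (0.101) nearest, and Dusp6 had Grk3 (0.177), Edaradd (0.179) and Klf6 (0.187). With 6 arrays in 3 groups, close profiles can arise among many genes, and these are a description of the arrays.

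The rest of the pathway was read through 4 lists of genes. In MYD88_L265P over EV 9.32% of all features were called higher and 7.33% lower. Among 21 other genes of the DUSP, Sprouty and Spred families, Dusp12 was higher and Dusp13 lower in MYD88_L265P than in EV, and 19 did not pass. Dusp12, an atypical phosphatase gene, read 10.09 and 10.11 in MYD88_L265P, against 9.14 and 9.02 in EV, and rose by 1.02 (SE 0.11, limma adjusted p = 0.00440). It was also the member of this list that passed against IKK_K171E (0.82, adjusted p = 0.0196). Dusp13 fell by 0.34. In IKK_K171E against EV 0 of the 21 passed with limma, and 1 did at an unadjusted p below 0.05. Of all features 1.37% and 17.1% did so. The list median was -0.11 in MYD88_L265P over EV, equal to that of all features at -0.11.

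Of 29 genes of the kinase cascades 22 had a tested feature. In MYD88_L265P against EV 2 rose and 2 fell: Mapk8, the gene of JNK1, rose by 0.65 (SE 0.10, limma adjusted p = 0.00941) and Sos1, an activator of RAS, by 0.39, while Map3k5, the stress kinase ASK1, fell by 0.46 and Araf, a RAF kinase, by 0.37. In IKK_K171E 0 of 22 passed with limma and 3 did at an unadjusted p below 0.05, beside 1.37% and 17.1% of all features. Map2k6, which activates p38, was lower in MYD88_L265P than in IKK_K171E (-0.72, adjusted p = 0.0462). The list median in MYD88_L265P over EV was 0.00. Its 2 rising and 2 falling genes stand beside 9.32% and 7.33% of all features.

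Among 20 early response genes that ERK can induce, 2 rose and 4 fell in MYD88_L265P against EV, with a median of -0.24. Of all features 9.32% were called higher and 7.33% lower. Atf3, which is also a stress response gene, rose by 1.04 (SE 0.12, limma adjusted p = 0.00556). Egr2 fell by 0.82 (SE 0.20, adjusted p = 0.0359) and Ier2 by 0.59 (SE 0.10, adjusted p = 0.0154). Egr1, singled out after its values were seen, read 8.23 and 8.55 in MYD88_L265P, against 9.05 and 10.69 in EV, and its difference of -1.48 (SE 0.57, adjusted p = 0.104) did not pass with EV arrays that far apart. Atf3 (1.08) and the AP-1 subunit gene Jun (0.63) were also higher in MYD88_L265P than in IKK_K171E. In IKK_K171E against EV 0 of 20 passed with limma and 4 did at an unadjusted p below 0.05. The shares of all features were 1.37% and 17.1%.

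Of 22 other inhibitors of RAS and ERK 2 rose and 3 fell in MYD88_L265P against EV (median -0.09), beside 9.32% and 7.33% of all features. Pebp1, the RAF kinase inhibitor protein gene, rose by 0.67 (SE 0.13, limma adjusted p = 0.0185). Ptpn6, the phosphatase SHP-1, fell by 0.66 (SE 0.09, adjusted p = 0.00831). Rasa3, a GTPase activator for RAS family proteins, read 10.16 and 10.30 in MYD88_L265P and 9.80 and 9.92 in IKK_K171E, against 10.70 and 10.97 in EV. It fell by 0.61 (adjusted p = 0.0196) in MYD88_L265P and by 0.97 (adjusted p = 0.0234) in IKK_K171E, where it was the 1 of 22 called. Between the constructs 0 of 22 passed with limma, and 7 did at an unadjusted p below 0.05, beside 1.75% and 19.6% of all features.

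**Figure D4:**
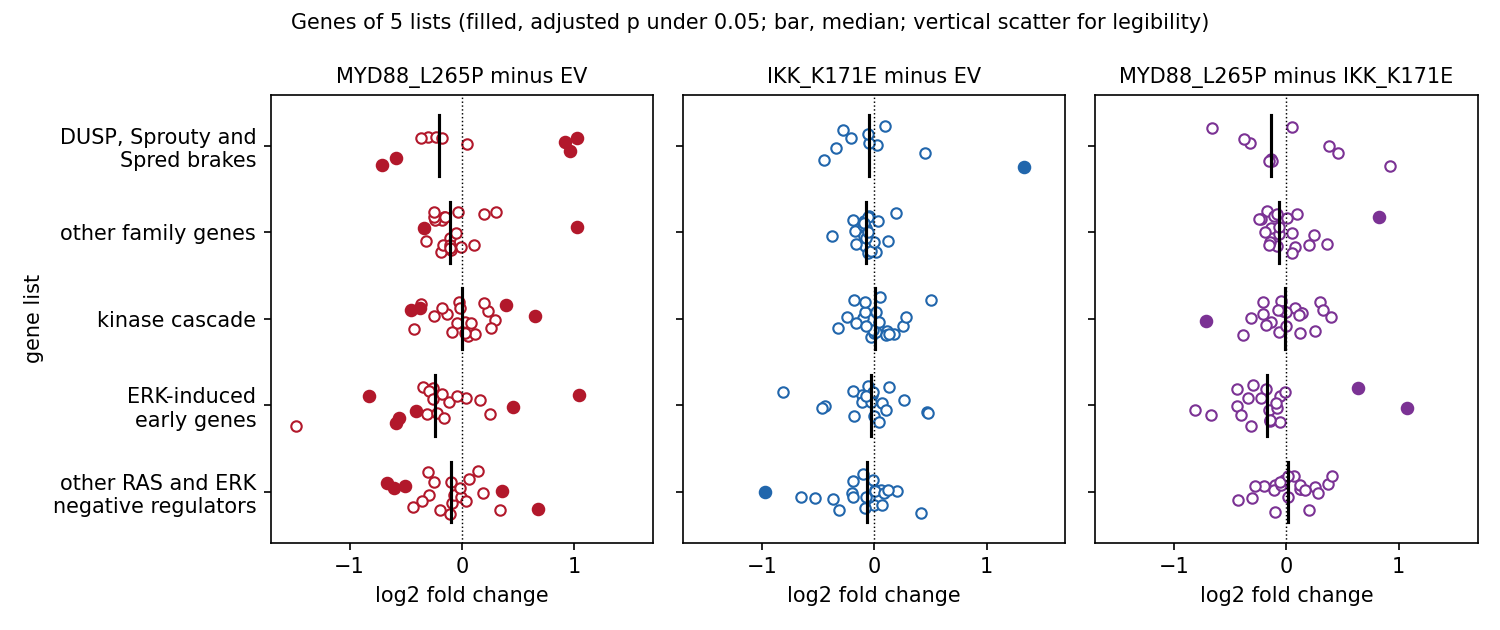
Log2 fold changes of single genes (points, spread vertically for legibility) in 5 lists and 3 comparisons, with filled points for adjusted p below 0.05 and black bars at list medians. The 10 brakes hold 5 filled points in MYD88_L265P minus EV, on both sides of 0, and the 21 other family genes hold 2, Dusp12 at 1.02 and Dusp13 at -0.34.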

How the data were processed

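Gene expression was measured on 6 arrays of sorted mouse B cells, in 3 groups of 2 taken from the labels. The deposited values are log2 signals per feature, normalized by the authors, and the submitters' processing notes name limma and oligo without versions. Background correction, summarization and genome build are not given in the sources used here. Values ran from 2.55 to 14.5, with array medians of 8.03 to 8.13. No value was transformed or filtered.

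Of 24743 features, 21542 with exactly 1 gene symbol were tested (19818 genes), while 1522 had several symbols and 1679 none. One limma model (version 3.58.1, R 4.3.3) held the means of the 3 groups over all 6 arrays, and 3 contrasts were moderated by empirical Bayes, with 3 residual degrees of freedom and 4.17 from the prior. Two-sided p-values were corrected with the Benjamini-Hochberg method over all tested features of a comparison, at a threshold of 0.05. They set group differences against the spread between 2 arrays per group, whose small number limits the precision. A gene with several features was shown by its brightest. The procedure was run on simulated data with independent noise and few changed features, a simpler setting than these arrays, and no result rests on that run. The members, lists and alternatives were chosen with earlier results of these data known. Every member was named, with up to 3 called genes of each list per comparison and the 3 nearest profiles of each called member. Araf, Egr1, Lyz2, Cd14, Xcr1, Siglech, Irf4, Sdc1 and Tnfrsf17 were named after their values were seen. The 16 alternatives changed 1 choice at a time, among them each array left out in turn.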

Additional observations from a re-analysis of the deposited data

How the results depend on the processing

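The number of the 10 genes called in MYD88_L265P over EV was 5, and 1 with a change of at least 2-fold required as well. It ran from 1 to 4 with 1 array left out, lowest without MYD88_L265P replicate 2 and 3 without MYD88_L265P replicate 1. In IKK_K171E over EV it was 1, and 2 under quantile normalization and with the dimmest 25% of features left out, and it ran from 0 (without IKK_K171E replicate 1) to 1 with an array left out. Between the constructs it was 0. With the replicate numbers as a block it was 2, Dusp6 and Dusp10 (adjusted p = 0.0495 and 0.0224), and the replicate block changed no other call of the 10 genes. The labels do not say that a number marks a shared animal or day, and deviations of same-numbered arrays correlated at 0.14, 0.10 and 0.21 across features in the 3 pairs of groups. Of 450 values of single genes under alternatives, 422 kept their direction and side of the threshold, 15 lost a call, 4 gained one and 9 reversed. All reversed values belonged to genes that did not pass. Dusp4 in MYD88_L265P over EV was -0.0299 under quantile normalization and ran from -0.14 to 0.22 with an array left out. In IKK_K171E over EV the same ranges were -0.26 to 0.31 for Dusp1, -0.31 to 0.22 for Dusp6, -0.0320 to 0.234 for Dusp10 and -0.171 to 0.0693 for Spry1, and for Dusp5 between the constructs -0.0135 to 0.106. For Dusp6 in MYD88_L265P over EV the call ended in 9 of 15 alternatives. Among them were all 24743 features (limma adjusted p = 0.0529) and the 2 groups alone (limma adjusted p = 0.0505). It also ended without either IKK_K171E array and without either MYD88_L265P array. The difference was -0.67 without MYD88_L265P replicate 1 and -0.75 without MYD88_L265P replicate 2. Over all features, 3586, 295 and 377 were called in MYD88_L265P over EV, IKK_K171E over EV and MYD88_L265P over IKK_K171E, and 478, 88 and 118 with a 2-fold change required. With an array left out these ran from 191 to 3554, from 0 to 506 and from 14 to 592. The count for IKK_K171E over EV was 626 with the replicate block, 123 with array weights, 131 with all features and 51 with its 2 groups alone, and that for MYD88_L265P over IKK_K171E was 592 with its 2 groups alone. With a common median the share of calls that were higher was 77.8%, against 56.0% as deposited, in MYD88_L265P over EV, and 66.4% against 49.9% in MYD88_L265P over IKK_K171E. A fit without 1 array takes the lone array of its group to vary like the others. With no detection values, low signal could not be told from background.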
